A study of Mus musculus with 6 samples.

Results

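The genes described here encode the proteins that define exons and build the core of the spliceosome: the SR splicing factors (Srsf), the heterogeneous nuclear ribonucleoproteins (hnRNPs, Hnrnp), the SF3A and SF3B subunits (Sf3a, Sf3b), the proteins of the small nuclear ribonucleoproteins (snRNPs, Snrp) and the U2AF subunits (U2af). They were taken by gene symbol alone, with no use of their measured levels, and 53 of the 14408 genes in the table matched: 10 SR genes, 20 hnRNP genes, 9 SF3A and SF3B genes, 11 snRNP protein genes and 3 U2AF genes. All 53 had a mean of at least 1 FPKM (fragments per kilobase of gene, scaled to the fragment total of the library), so all 53 were tested.

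The 6 libraries are labelled as heart tissue, left ventricle, of male C57BL/6J mice. Per the labels, heart failure with preserved ejection fraction (HFpEF) had been induced in these mice. Every animal, control or treated, began at 8 weeks of age on a high-fat diet, with L-NAME, which blocks nitric oxide synthesis, in the water at 0.5 g/L over 8 to 12 weeks. After that, 1 group received L-proline, 300 mg per kg each day by intraperitoneal injection for 4 to 8 weeks, and the other the vehicle PBS. Each group has 3 libraries, and all 6 carry the HFpEF induction. The labels name no batch and do not tie libraries to animals, and p-values therefore reflect differences among the 6 libraries alone, some of which could be technical.

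In splicing, the U1 snRNP marks the start of an intron, U2AF and the U2 snRNP mark its end and branch point, and a ring of Sm proteins holds each of these snRNPs together. SR proteins carry domains rich in arginine and serine and mostly promote the use of the exons they bind. Many hnRNPs act the other way, and they also package, export and stabilise RNA. Several genes of both families limit their own level by splicing in an exon with a stop codon, which sends the transcript to decay. The values used here count fragments per gene, so they say nothing of which exons were joined.

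Facts of the whole series bear on what follows. The fragment totals recovered from the FPKM values lay between 34990473 and 37498030 per library, and the 53 genes held 0.779% to 0.909% of them, between 437 and 26610 fragments per gene and library. The label is left ventricle, yet most of the heart muscle markers checked were absent or near 0, for reasons that were not tested. Of 13 cardiomyocyte markers, 7 are not among the 14408 genes listed and 6 are. Of these 6, Ttn, Ryr2, Myl2 and Tnni3 lay under 1 FPKM in every library. Tnnt2 and Rbm20 were present and made up nearly all of the summed 37.6 to 39.1 FPKM in PBS. Fibroblast markers summed to 6177 to 6426 FPKM in PBS and 6438 to 6772 in L-proline over 8 listed genes, and the 4 listed endothelial markers to at most 0.972. With limma, 2056 of 10500 tested genes (19.6%) passed an adjusted p of 0.05, 788 higher (7.5%) and 1268 lower (12.1%) in L-proline. Median-of-ratios scaling turned this split to 993 higher and 919 lower, and quantile normalization to 1077 and 1019.

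Against that background most splicing genes stayed close to their PBS level, and a small set of hnRNP genes and 1 SR gene moved. Of the 53 genes, 6 passed (11.3%, against 19.6% of all genes tested): Hnrnpa1, Hnrnpd, Srsf5, Hnrnpul2 and Hnrnpul1 fell and Hnrnpc rose. That is 1 higher (7.5% of all genes were) and 5 lower (12.1% of all genes were). The median log2 fold change of the 53 was -0.03, beside -0.06 over all genes tested, and 41 of the 53 (77.4%) lay within 0.25 of 0 on the log2 scale, beside 66.5% of all genes. The 3 libraries of 1 group all lay beyond the 3 of the other for 12 of the 53 (22.6%), beside 40.1% of all genes, with 3 higher (16.0% of all genes) and 9 lower (24.0%). In bulk RNA, fewer cells that hold a transcript and less of it per cell cannot be told apart.

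**Figure D1:**
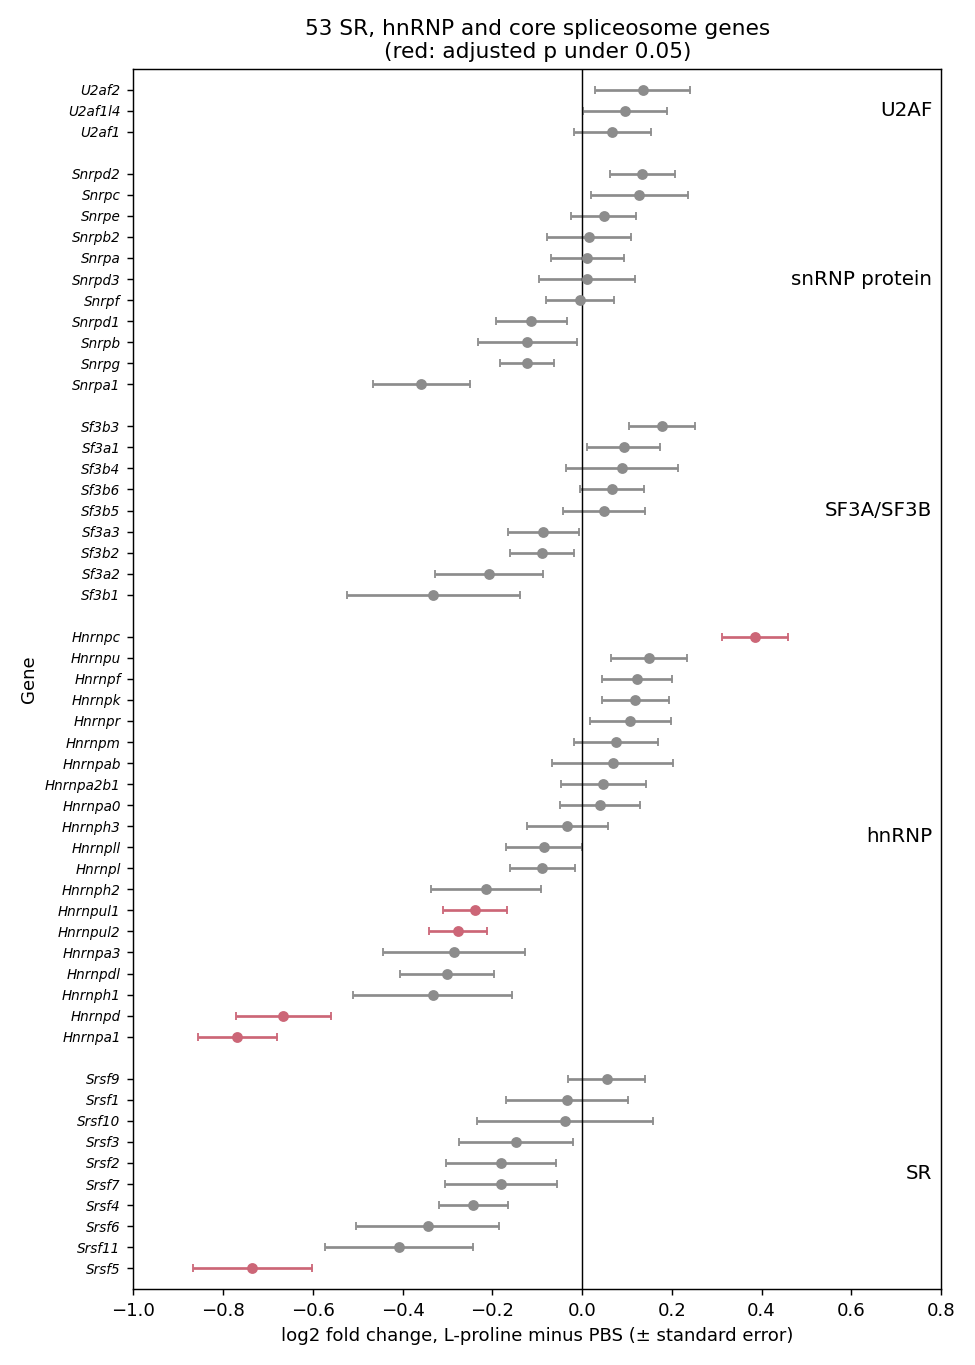
Log2 fold change (L-proline minus PBS, on log2(FPKM + 1), x axis) with its standard error for each of the 53 genes (y axis), grouped by family. Red points passed an adjusted p of 0.05; they are 5 hnRNP genes and Srsf5, from -0.77 for Hnrnpa1 to 0.39 for Hnrnpc.

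Hnrnpa1, an hnRNP that represses exons and shuttles to the cytoplasm, was the most abundant of the 53 genes and had the largest decrease. It stood at 365, 345 and 325 FPKM in PBS 1, 2 and 3 and at 203, 223 and 182 in L-proline 1, 2 and 3. Every L-proline library was thus far below every PBS library. The means were 345 ± 19.9 and 203 ± 20.6 FPKM (SD, n = 3), 58.7% of the PBS level, and the log2 fold change was -0.77 ± 0.09 (SE; limma, adjusted p = 0.00132). Its share of all hnRNP transcripts went from 24.0 ± 1.51% to 15.5 ± 0.401% of the summed FPKM. Its close relative Hnrnpa2b1, which also binds exonic silencers, was 135 ± 5.69 and 140.0 ± 16.6 FPKM, so that Hnrnpa1 was 2.78, 2.62 and 2.30 times Hnrnpa2b1 in the PBS libraries and 1.39, 1.46 and 1.50 times in the L-proline libraries. Copies of Hnrnpa1 without introns are known in the mouse genome, and the sources used here do not say how fragments that fit several places were treated.

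Srsf5 was the only SR gene past the threshold, and the most abundant one. This SR protein is known for binding purine-rich exonic enhancers. Its levels were 164, 130.2 and 156 FPKM in PBS 1, 2 and 3, against 91.9, 104 and 74.7 in L-proline 1, 2 and 3. The groups did not overlap, although PBS 2 was the lowest of its group and L-proline 2 the highest. Means were 150.1 ± 17.6 and 90.2 ± 14.7 FPKM, and Srsf5 fell by 0.73 ± 0.13 on the log2 scale (limma, adjusted p = 0.00792).

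Hnrnpd, whose protein is also called AUF1 and binds AU-rich elements that steer messenger RNA decay, was far scarcer than Hnrnpa1 but fell by a similar factor. It measured 15.7, 16.1 and 16.4 FPKM in the 3 PBS libraries and 9.05, 11.6 and 8.83 in L-proline 1, 2 and 3. The PBS libraries were almost equal, and all L-proline libraries lay below them. Group means were 16.1 ± 0.319 and 9.84 ± 1.56 FPKM, and the fitted difference was -0.67 ± 0.11 on the log2 scale (limma, adjusted p = 0.00507). In GENCODE M21 an antisense gene, Gm17092, shares exon bases with Hnrnpd, and the sources used here do not say whether counting used strand, so reads of the pair cannot be told apart. The related genes Hnrnpdl and Hnrnpab did not pass, at 34.6 ± 2.36 and 28.0 ± 3.62 FPKM for Hnrnpdl and 156 ± 19.4 and 164 ± 28.5 for Hnrnpab. Hnrnpdl was nonetheless lower in every L-proline library than in any PBS library (log2 fold change -0.30 ± 0.10, limma, adjusted p = 0.0802). Hnrnpab overlapped between groups (0.07 ± 0.13, adjusted p = 0.752).

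Hnrnpc, a nuclear hnRNP that binds uridine tracts and keeps cryptic exons out of messages, was the only one of the 53 to rise. In PBS 1, 2 and 3 it stood at 64.0, 72.5 and 65.1 FPKM, and in L-proline 1, 2 and 3 at 85.5, 92.6 and 86.0. Library 2 was the highest in both groups, and the groups stayed apart. The means were 67.2 ± 4.63 and 88.0 ± 3.98 FPKM and the log2 difference 0.39 ± 0.07 (limma, adjusted p = 0.0101), which no longer passed without PBS 1 (adjusted p = 0.0544) or without PBS 3 (0.0612); over its 12 alternatives the adjusted p ran from 0.00388 to 0.0612. Set against each other within a library, Hnrnpc amounted to 0.175 to 0.210 of Hnrnpa1 in PBS and 0.415 to 0.473 in L-proline. This ratio pairs the only gene that rose with the one that fell most, so its shift follows from their own changes.

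The paralogs Hnrnpul1 and Hnrnpul2, relatives of the nuclear matrix protein hnRNP U, fell by smaller and similar amounts. Hnrnpul2 was 28.8, 29.2 and 30.1 FPKM in PBS 1, 2 and 3 and 23.5, 24.5 and 24.2 in the L-proline libraries. Hnrnpul1 was 41.7, 44.5 and 42.4 in PBS and 34.5, 38.4 and 35.7 in L-proline. Neither gene had an L-proline library that reached the lowest PBS library, and their ratio (Hnrnpul1 over Hnrnpul2) was 1.46 ± 0.0579 in PBS and 1.50 ± 0.0565 in L-proline. The log2 fold changes were -0.28 ± 0.06 for Hnrnpul2 (limma, adjusted p = 0.0220) and -0.24 ± 0.07 for Hnrnpul1 (adjusted p = 0.0494). These are the least stable of the 6 calls: Hnrnpul1 passed under 3 of 12 alternatives (adjusted p from 0.0349 to 0.160), and Hnrnpul2 under 8 of 12 (0.0178 to 0.121), missing it without PBS 1 (0.0774), without PBS 2 (0.0661), without PBS 3 (0.121) and with median-of-ratios scaling (0.0701). Exons of a further protein-coding gene model on the same strand, AC129217.1, overlap those of Hnrnpul2 in GENCODE M21. Hnrnpu itself, the namesake, was 35.3 ± 0.631 and 39.4 ± 3.90 FPKM and did not pass.

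**Figure D2:**
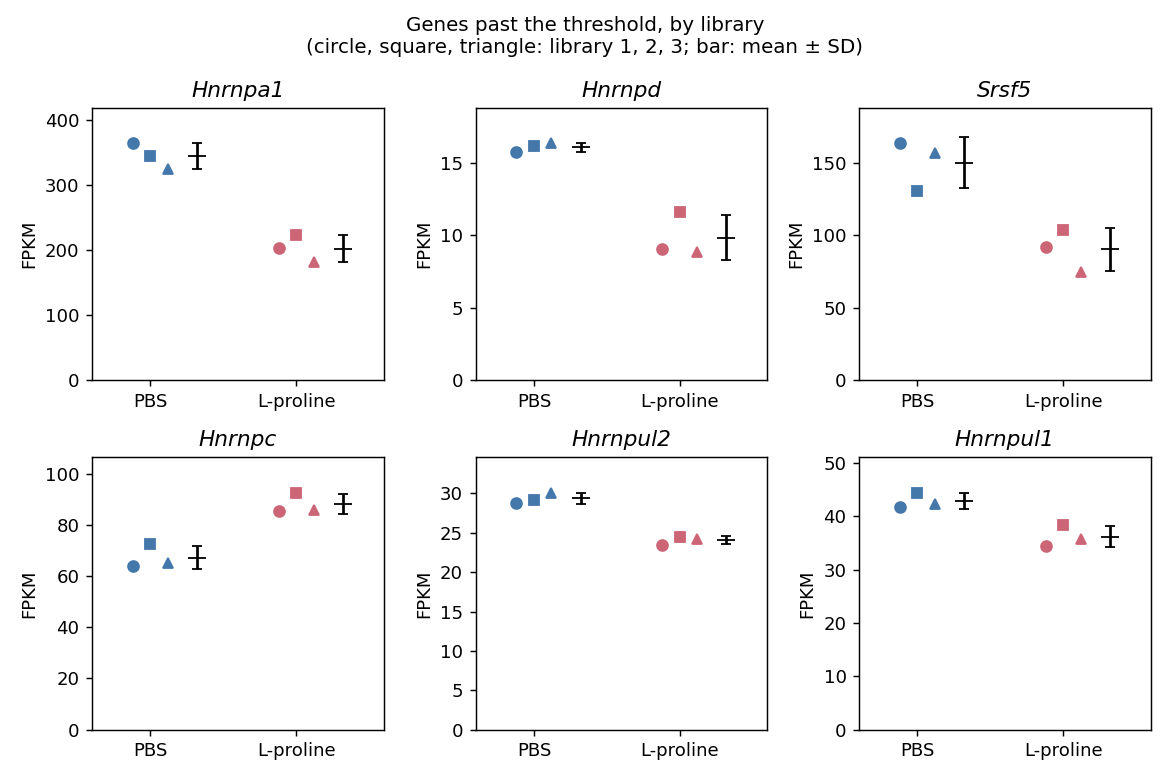
FPKM (y axis, from 0) of the 6 genes past the threshold in each PBS (blue) and L-proline (red) library, with the group mean and SD as a bar. Hnrnpa1, Hnrnpd, Srsf5, Hnrnpul2 and Hnrnpul1 are lower and Hnrnpc higher in all 3 L-proline libraries than in any PBS library.

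Promoter sequence is shown for the 3 genes with the largest decreases and for the 1 gene that rose, to set the genes that moved side by side. The windows run from 220 to 21 bases before the annotated start (RefSeq, GRCm38.p6, 5′ to 3′ on the strand of the gene), and capitals mark matches on either strand to CCAAT (the box bound by NF-Y), GGGCGG (the box bound by Sp1 and its relatives, called a GC box) and CGGAAG (the core of an ETS site). None of the marked matches overlap each other. The windows lie at chr15:103240177-103240376 (plus strand, Hnrnpa1), chr12:80945279-80945478 (plus, Srsf5), chr5:99978959-99979158 (minus, Hnrnpd) and chr14:52104042-52104241 (minus, Hnrnpc).
Hnrnpa1: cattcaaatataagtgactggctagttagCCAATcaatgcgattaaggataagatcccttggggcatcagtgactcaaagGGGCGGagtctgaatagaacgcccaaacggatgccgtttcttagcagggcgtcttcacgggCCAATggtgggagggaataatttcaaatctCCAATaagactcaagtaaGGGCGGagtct
Srsf5: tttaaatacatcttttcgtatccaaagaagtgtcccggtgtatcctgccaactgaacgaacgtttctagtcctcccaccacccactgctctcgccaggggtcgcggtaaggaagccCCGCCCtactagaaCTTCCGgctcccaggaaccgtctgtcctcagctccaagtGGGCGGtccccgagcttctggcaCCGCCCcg
Hnrnpd: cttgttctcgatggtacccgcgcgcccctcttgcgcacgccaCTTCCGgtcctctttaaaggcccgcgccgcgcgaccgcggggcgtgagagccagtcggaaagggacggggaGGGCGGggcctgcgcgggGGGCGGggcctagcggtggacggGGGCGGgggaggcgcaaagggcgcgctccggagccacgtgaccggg
Hnrnpc: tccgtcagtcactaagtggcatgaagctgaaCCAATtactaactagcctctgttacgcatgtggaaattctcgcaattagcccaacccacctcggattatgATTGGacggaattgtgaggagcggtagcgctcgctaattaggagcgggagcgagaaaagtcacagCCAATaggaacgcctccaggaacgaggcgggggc
The windows of Hnrnpa1, which fell, and Hnrnpc, which rose, each hold 3 CCAAT boxes and 0 ETS cores. Hnrnpa1 also has 2 GC boxes, and Hnrnpc has 0. Those of Srsf5 and Hnrnpd hold no CCAAT box but have 3 GC boxes and 1 ETS core each. The 4 promoters also differ in base composition, from 47.5% GC for Hnrnpa1 to 75.5% for Hnrnpd. Among the 46 of 53 genes that matched the promoter table, 20 had CCAAT (43.5%, beside 30.0% of all 27025 promoters). GGGCGG was in 29 (63.0%, beside 28.8%) and CGGAAG in 21 (45.7%, beside 10.9%). CACGTG, TGACGTCA and TATAAA were found in 2, 2 and 4 of the 46 windows (4.35%, 4.35% and 8.70%), beside 4.94%, 1.29% and 10.9% of all promoters. The core of the interferon-stimulated response element was in 0 of the 46 windows and in 2.37% of all. The table spans genes of every kind, and the median GC content was 60% for the 46 windows and 52.5% for all. No sequence was matched for Hnrnpul2.

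Beyond Srsf5, the SR genes mostly had negative fold changes that did not pass. Of the 10, 9 lay below 0 (59.4% of all genes did), with a median log2 fold change of -0.18, and 1 was called (19.6% of all genes were). Their libraries also spread more within groups, which makes a call harder to reach. The median SD of log2(FPKM + 1) was 0.12 in PBS and 0.24 in L-proline, beside 0.09 and 0.13 over all genes tested. Srsf1 (-0.03) and Srsf10 (-0.04) turned positive with median-of-ratios scaling (0.027 and 0.020), and Srsf10 also with quantile normalization (0.019). Srsf11, a splicing factor with an arginine- and serine-rich domain, went from a mean of 23.4 ± 4.42 to 17.3 ± 3.19 FPKM (log2 fold change -0.41 ± 0.16, limma, adjusted p = 0.119). Srsf6, which is known to regulate its own splicing, was 40.04 ± 3.18 and 31.9 ± 8.24 (-0.34 ± 0.16, adjusted p = 0.166), and Srsf4 was 11.2 ± 0.385 and 9.34 ± 0.483 (-0.24 ± 0.08, adjusted p = 0.0609). Srsf4 was the only other SR gene whose groups did not overlap. The founding members were nearer to 0: Srsf1, an oncogenic splicing activator that also serves export and translation, was 43.1 ± 2.57 and 42.6 ± 8.26, Srsf2, a component of nuclear speckles, 48.8 ± 4.22 and 43.2 ± 7.36, and Srsf3, the smallest SR protein, 63.4 ± 6.31 and 57.4 ± 9.80. Srsf7, similar to Srsf3 but with a zinc knuckle, was 39.4 ± 3.21 and 34.9 ± 6.23, and Srsf9 59.3 ± 3.37 and 61.8 ± 5.80.

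Summed over the 10 SR genes, the level was 486, 478 and 511 FPKM in PBS 1, 2 and 3 and 395, 464 and 346 in L-proline 1, 2 and 3. All L-proline sums were below all PBS sums. Without Srsf5 the sums were 323, 347 and 354 in PBS and 303, 359.9 and 271 in L-proline, which overlap. The same held for the 20 hnRNP genes, whose sum was 1437 ± 23.9 in PBS and 1309 ± 101 in L-proline, and 1092 ± 33.3 and 1106 ± 80.5 without Hnrnpa1. With Hnrnpa1 the hnRNP groups were only just apart, at 1420 in PBS 1 and 1413 in L-proline 2. The gene left out of each sum was the one that fell most in its family. Srsf5 made up 30.5 ± 3.19% of the summed SR level in PBS and 22.4 ± 0.836% in L-proline.

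**Figure D3:**
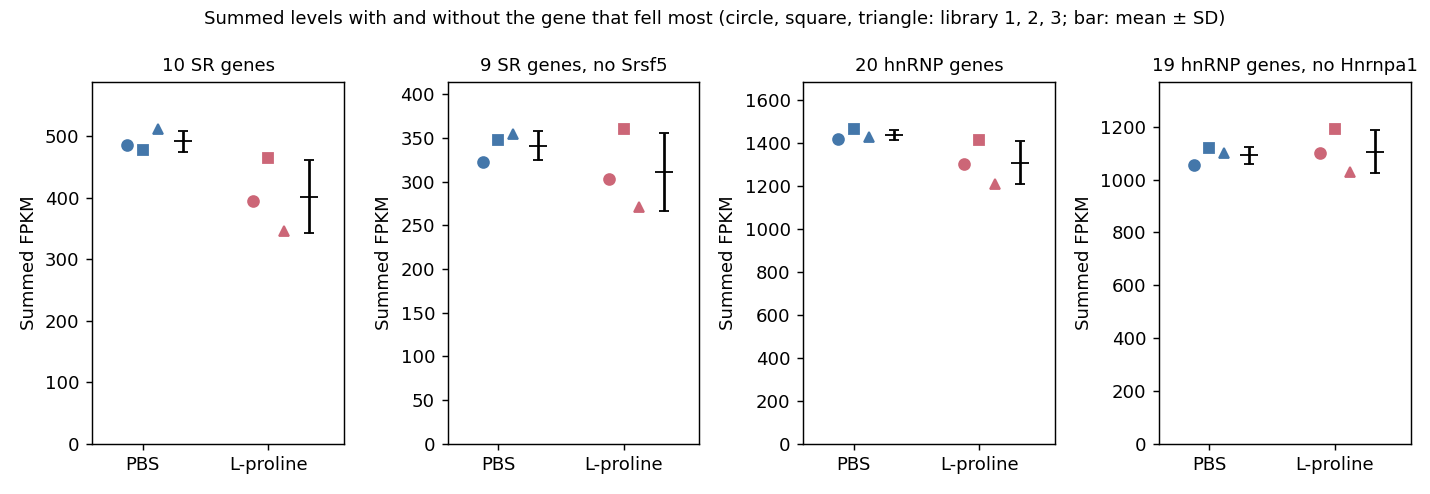
Summed FPKM (y axis, from 0) of the SR genes and of the hnRNP genes in each library, with and without Srsf5 or Hnrnpa1; bars give the mean and SD of each group. The groups are apart with these 2 genes, the hnRNP sums only just, and overlap without them.

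None of the other 15 hnRNP genes passed, and their log2 fold changes ran from -0.33 (Hnrnph1) to 0.15 (Hnrnpu). Those of Hnrnph1, Hnrnpdl (-0.30) and Hnrnpa3 (-0.29) were as large as those of Hnrnpul2 and Hnrnpul1, with standard errors of 0.18, 0.10 and 0.16. Hnrnpk, which binds cytidine-rich RNA and is the second most abundant hnRNP here, was 164 ± 3.64 and 179 ± 14.4 FPKM (log2 fold change 0.12 ± 0.07). Hnrnpm was 69.3 ± 4.24 and 73.3 ± 7.93, Hnrnpl, known for CA-repeat binding, 66.9 ± 2.36 and 62.9 ± 4.01, its paralog Hnrnpll 30.8 ± 1.43 and 29.0 ± 2.61, and Hnrnpa0 99.98 ± 6.95 and 103 ± 9.52. Hnrnpf and Hnrnph1, both binders of guanine-rich runs, had opposite signs: Hnrnpf was 18.5 ± 0.878 and 20.2 ± 1.29 with no overlap of the groups (0.12 ± 0.08, adjusted p = 0.297), and Hnrnph1 42.3 ± 4.96 and 34.0 ± 8.51 (-0.33 ± 0.18, adjusted p = 0.217). Hnrnph2, their X-linked relative, was 49.0 ± 2.00 and 42.5 ± 7.65, Hnrnph3 11.8 ± 0.402 and 11.6 ± 1.22, Hnrnpr 10.02 ± 0.387 and 10.9 ± 1.09, and Hnrnpa3 12.8 ± 1.91 and 10.4 ± 2.27. Of the 20 hnRNP genes, 5 passed (25%, beside 19.6% of all genes) and 7 had groups that did not overlap (35%, beside 40.1% of all genes), and the median log2 fold change was -0.06.

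None of the 11 snRNP protein genes passed (limma, 1 at an unadjusted p under 0.05, and 0 with limma-voom). The Sm ring is built from 7 proteins in equal number, and the FPKM of its 7 genes spanned a 2.51- to 3.01-fold range in every library. Snrpg, the most abundant, was 171, 170.1 and 159.7 FPKM in PBS 1, 2 and 3 and 153, 152 and 155 in L-proline 1, 2 and 3. The L-proline libraries were all slightly lower, at means of 167 ± 6.38 and 153 ± 1.47 (log2 fold change -0.12 ± 0.06, limma, adjusted p = 0.187). The other ring genes, Snrpb, Snrpd1, Snrpd2, Snrpd3, Snrpe and Snrpf, had log2 fold changes between -0.12 (Snrpb) and 0.13 (Snrpd2), and Snrpd2 stood at 137 ± 9.50 and 149.7 ± 5.45 FPKM. The U1 proteins Snrpa and Snrpc were 46.3 ± 3.08 and 46.7 ± 3.29 and 51.1 ± 4.37 and 56.1 ± 7.23.

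Snrpa1, which encodes the U2 protein A′, was the snRNP gene nearest the threshold. Its values were 34.0, 36.6 and 34.8 FPKM in PBS 1, 2 and 3 and 25.6, 32.3 and 24.3 in L-proline 1, 2 and 3. All L-proline libraries lay below the PBS libraries, with L-proline 2 close to them. The log2 fold change was -0.36 ± 0.11 (limma, adjusted p = 0.0515, between 0.0121 and 0.149 over the alternatives), and 3 of 12 alternatives passed it. Its binding partner in the U2 snRNP, Snrpb2, was 37.5 ± 0.895 and 38.1 ± 4.48, and the ratio Snrpa1 over Snrpb2 was 0.939 ± 0.0386 in PBS and 0.721 ± 0.0805 in L-proline.

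The SF3A and SF3B genes, whose proteins hold the U2 snRNP on the branch point, had 0 of 9 past the threshold (limma, 1 at an unadjusted p under 0.05, and 0 with limma-voom). Sf3b2, the most abundant of them, was 110.4, 121 and 107 FPKM in PBS 1, 2 and 3 and 101, 107 and 109.9 in L-proline 1, 2 and 3. These ranges overlap, with a log2 fold change of -0.09 ± 0.07. Sf3b3, a scaffold of the SF3B complex, had the smallest p of the family: 32.4, 35.6 and 32.7 in PBS against 35.8, 39.5 and 39.0 in L-proline. Its groups lay just apart (0.18 ± 0.07, limma, adjusted p = 0.131). Sf3a1, Sf3a3, Sf3b4, Sf3b5 and Sf3b6 had log2 fold changes from -0.09 (Sf3a3) to 0.09 (Sf3a1), and Sf3a2, a subunit that contacts the branch region, -0.21 ± 0.12.

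The U2AF genes gave 0 of 3 calls (limma, 0 at an unadjusted p under 0.05, and 0 with limma-voom). U2af1, the small subunit that reads the AG at the intron end, was 51.1, 58.5 and 54.5 FPKM in PBS 1, 2 and 3 and 54.7, 63.1 and 54.4 in L-proline 1, 2 and 3. U2af2, the large subunit that binds the pyrimidine tract, was 18.9, 23.0 and 20.4 in PBS and 20.1, 24.7 and 24.0 in L-proline (log2 fold change 0.13 ± 0.11, limma, adjusted p = 0.391). Both overlap between groups. U2af1l4, a relative of the small subunit, was 14.9 ± 1.82 and 15.9 ± 0.461. It had the fewest fragments of the 53 genes, 437 to 537 per library.

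Single libraries set part of this picture. Within the L-proline group, L-proline 2 was the highest library for 35 of the 53 genes and the lowest for 1, and L-proline 3 was the lowest for 31, among them 8 of 10 SR genes and 14 of 20 hnRNP genes. Over all genes tested, L-proline 3 was the lowest of its group for 38.3% and L-proline 2 the highest for 34.0%. In PBS, PBS 1 was the lowest for 36 of 53 genes (38.3% of all genes). Sf3b1, the branch-point subunit that contacts the intron, shows the spread: 57.1, 40.5 and 52.6 FPKM in PBS 1, 2 and 3 and 51.1, 39.1 and 30.1 in L-proline 1, 2 and 3. PBS 2 thus lay nearer to L-proline 2 than to its own group. Srsf10, an SR protein that represses splicing when dephosphorylated, had a mean of 12.9 FPKM in both groups but ran from 8.77 in L-proline 3 to 16.4 in L-proline 1. Sf3b1 and Srsf10 were picked here for their spread.

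**Figure D4:**
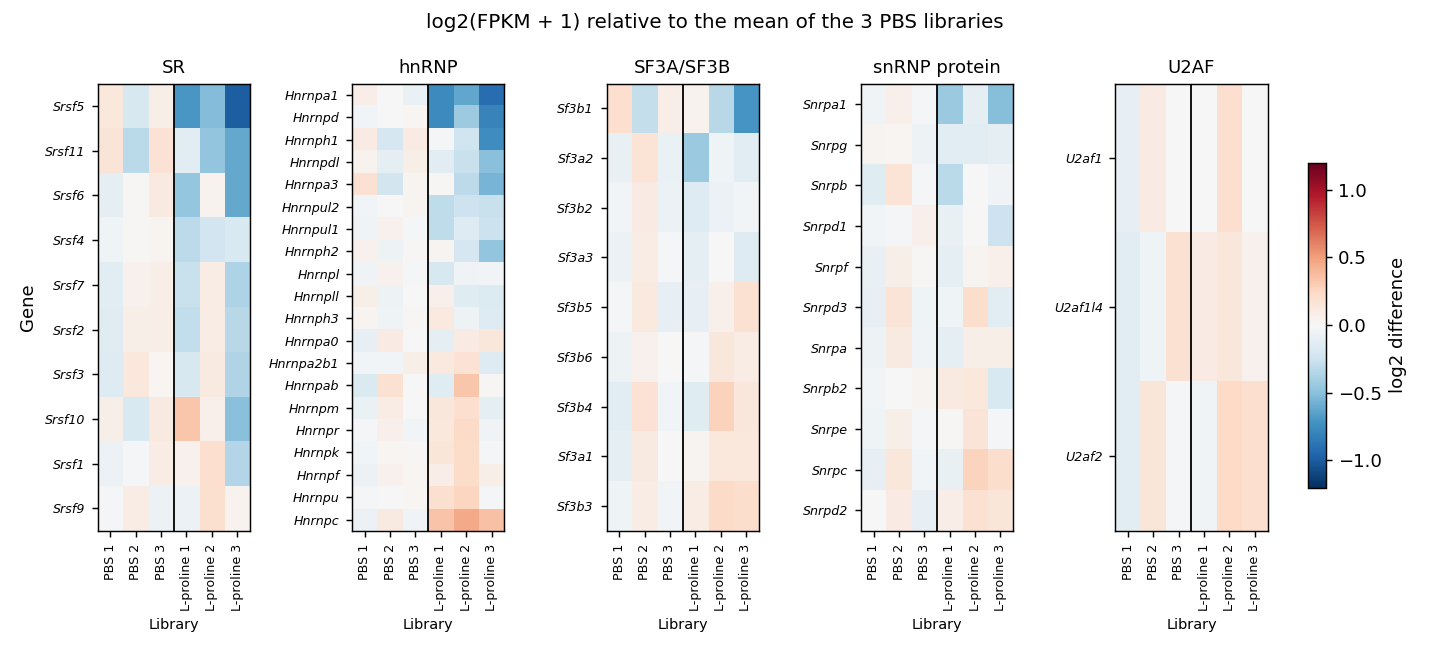
Each cell shows log2(FPKM + 1) of a gene (y axis) in a library (x axis) minus the mean of the 3 PBS libraries, by family, with the color scale on the right. Hnrnpa1, Hnrnpd and Srsf5 are low in all L-proline libraries, while Sf3b1, Srsf10 and Hnrnph1 are lowest in L-proline 3. Sf3b1 and Hnrnph1 are also below the PBS mean, by less, in PBS 2 and L-proline 2.

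Gene length was set against this spread. Across the 53 genes the deviation of a library from its group mean correlated with log2 gene length at r = 0.36 for L-proline 1, -0.03 for L-proline 2 and -0.36 for L-proline 3, and at 0.21, -0.36 and 0.39 for PBS 1, 2 and 3. Over all 10500 genes the values were 0.39, -0.24 and -0.26, and 0.35, -0.43 and 0.26. These are descriptions across genes of the same libraries. The lengths, recovered from the FPKM values, ran from 393 bases for Snrpg to 15152 for Hnrnpu, with 7507 for Sf3b1 and 1944 for Hnrnpa1. The share of fragments from mitochondrially encoded genes was 2.82%, 2.63% and 1.70% in L-proline 1, 2 and 3 and 1.86% to 2.08% in PBS. The part of either measure in the results was not tested.

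The counts also changed when 1 library was left out, which lowers the group size as well. Without L-proline 1, 11 of the 53 genes passed (20.8%, with 26.3% of all genes), 1 higher and 10 lower. The added genes were Hnrnpa3, Hnrnpdl, Hnrnph1, Hnrnph2, Sf3b1 and Srsf11, and Hnrnpul1 no longer passed. Without PBS 1 or without PBS 3, the same 3 genes passed, Hnrnpa1, Hnrnpd and Srsf5 (5.66%, with 9.22% and 8.29% of all genes). Hnrnpa1, Hnrnpd and Srsf5 passed under all 12 alternatives, with adjusted p up to 0.00944, 0.0304 and 0.0409.

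Other genes of the splicing machinery were counted in 10 lists of 174 genes, of which 161 were tested and 21 passed (13.0%, against 19.6% of all genes), 10 higher and 11 lower. Other splicing regulators held most of the decreases, with 7 of 29 lower and 0 higher (24.1%). Of all genes, 12.1% were lower and 7.5% higher. With limma-voom this list had 6 calls. Cirbp and Rbm3, RNA-binding proteins known for induction by mild cold, went from 17.9 ± 2.22 to 7.56 ± 0.567 FPKM (log2 fold change -1.14 ± 0.10, limma, adjusted p = 0.000484) and from 52.9 ± 4.49 to 27.9 ± 5.62 (-0.92 ± 0.13, adjusted p = 0.00366). Ewsr1, a partner of the U1 snRNP, fell from 48.3 ± 1.27 to 35.8 ± 2.09, and Khsrp, which like Hnrnpd binds AU-rich elements, from 49.3 ± 1.05 to 39.6 ± 2.90. Among SR-related proteins 2 of 20 fell, the speckle coactivator Srrm1 (23.8 ± 1.31 to 19.1 ± 1.63) and Rsrc1, and the median log2 fold change was -0.21.

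The enzymes and carriers that act on SR proteins gave 1 call in each direction among 9 tested. That is 22.2% called, beside 19.6% of all genes, of which 7.5% were higher and 12.1% lower. The kinase gene Clk3 rose from 15.7 ± 0.598 to 21.2 ± 1.02 FPKM (log2 fold change 0.41 ± 0.07, limma, adjusted p = 0.00752), and Tnpo3, which imports SR proteins into the nucleus, fell from 21.6 ± 0.803 to 17.2 ± 1.55 (-0.32 ± 0.09, adjusted p = 0.0366). Nonsense-mediated decay had 1 of 12 lower (8.33%, beside 12.1% of all genes), Smg9 at 4.68 ± 0.428 and 2.74 ± 0.451.

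Calls in the lists of core assembly and later steps were all increases. Of all genes tested, 19.6% were called, 7.5% higher and 12.1% lower. The lists with calls had 7.14%, 7.14%, 37.5% and 13.0% called, in the order given here. Their median log2 fold changes were -0.07, -0.003, -0.03 and 0.08. Of 28 other proteins of the U1, U2, U5 and U4/U6 particles, 2 rose, the U5 protein gene Txnl4a (5.05 ± 0.676 to 6.88 ± 0.454) and the U4/U6 protein gene Prpf3 (9.80 ± 0.264 to 12.5 ± 1.24). Gemin7 was the 1 of 14 genes of the SMN complex, which loads Sm rings, to rise, from 32.4 ± 3.19 to 44.6 ± 2.38 (log2 fold change 0.45 ± 0.09, limma, adjusted p = 0.0101). In the exon junction complex and its partners 3 of 8 rose, Ddx39a, Casc3 and the export helicase gene Ddx39b (79.7 ± 5.92 to 101 ± 10.4), and in the PRP19 and catalytic step list 3 of 23, Syf2, Bud31 and Snw1. With limma-voom the exon junction list had 2 calls and the PRP19 and catalytic step list 0. The LSm proteins (10 tested) and the minor spliceosome (8 tested) had 0 calls with limma and with limma-voom, and 2 each at an unadjusted p under 0.05.

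**Figure D5:**
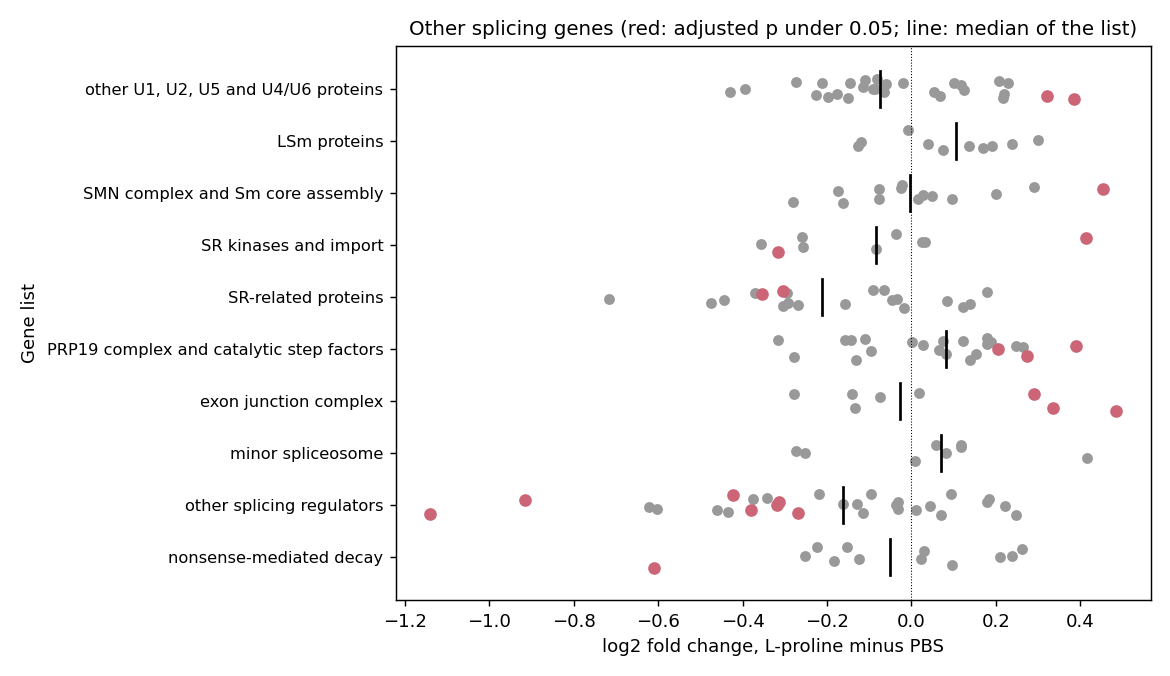
Log2 fold change (x axis) of each tested gene in 10 lists of other splicing genes (y axis), with the median of each list as a line and red points for genes past an adjusted p of 0.05. The 2 points farthest to the left, at -1.14 and -0.92, are Cirbp and Rbm3.

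Proliferation genes moved with the groups too. Of 15 tested, 7 fell and 0 rose (46.7% called, beside 19.6% of all genes, of which 12.1% were lower), and their summed level was 601 to 608 FPKM in PBS and 368 to 488 in L-proline, with none at 0. Of 8 fibroblast markers tested 3 rose and 2 fell. The 6 listed cardiomyocyte markers summed to 37.6 to 39.1 FPKM in PBS and 20.7 to 22.0 in L-proline. Most of this was Tnnt2, which fell by 1.09 ± 0.09 on the log2 scale. Of 9 macrophage markers 5 are not listed, and the 4 listed summed to 4.59 to 5.60 and 6.53 to 7.72, with 1 of 2 tested higher. The part of any of these lists in the decreases of Hnrnpa1, Hnrnpd and Srsf5 was not tested.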

How the data were processed

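Gene expression was measured by RNA sequencing of polyadenylated RNA in 3 PBS and 3 L-proline libraries. The authors deposited 1 table of FPKM values, per the file headers. HISAT2, HTSeq 0.13.5 and the build GRCm39 appear in the submitters' processing notes, without the step each served. The filter on genes and the treatment of fragments that fit several places are not given in the sources used here. Groups came from the sample titles.

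Whole fragments were recovered from the FPKM values through the 13 mitochondrially encoded genes (tolerance 0.01), which gave 14407 of 14408 genes. limma 3.58.1 (R 4.3.3; mean-variance trend, two-sided) compared the groups on log2(FPKM + 1) over genes with a mean of at least 1 FPKM, with Benjamini-Hochberg adjustment over all of these and a threshold of 0.05; the steps were tested on simulated data. Fold changes on that scale understate changes of low genes. A gene that "rose" or "fell" passed it.

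Library values are given for genes past the threshold and, in each family, for the most abundant gene and, where none passed, the one with the smallest p. From each other list up to 4 genes with the smallest p may be named. The genes and lists were chosen with earlier results of these data known. Alternatives were a pseudocount of 0.1, no filter, 2 other scalings, limma-voom on the fragments, a replicate block and leaving out each library. Promoters are from RefSeq (GRCm38.p6, first start listed per gene, 46 of 53 genes matched), and exon overlaps from GENCODE M21. The protein features planned for these genes were not analysed here.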

Additional observations from a re-analysis of the deposited data

How the results depend on the processing

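The count of all genes past the threshold ran from 870 (without PBS 3) to 2762 (without L-proline 1) when 1 library was left out, from 0 to 1 for the splicing genes that rose and from 3 to 10 for those that fell; where 0 rose (limma, without PBS 1 or PBS 3), 1 was higher at an unadjusted p under 0.05. Median-of-ratios scaling left 3 that fell. The other settings kept each of these counts within 1.5 times. The median log2 fold change of the 53 genes stayed between -0.09 and 0.02. Signs changed only for genes that passed under no setting. Over the fits without 1 library, log2 fold changes ran from -0.0094 to 0.12 for Hnrnpa0, -0.017 to 0.15 for Hnrnpa2b1, -0.064 to 0.18 for Hnrnpab, -0.11 to 0.029 for Hnrnph3, -0.0053 to 0.21 for Sf3b4, -0.017 to 0.12 for Sf3b5, -0.020 to 0.070 for Snrpa, -0.037 to 0.12 for Snrpb2, -0.089 to 0.088 for Snrpd3, -0.0037 to 0.084 for Snrpe, -0.047 to 0.048 for Snrpf, -0.15 to 0.13 for Srsf1, -0.22 to 0.20 for Srsf10, -0.014 to 0.12 for Srsf9 and -0.0020 to 0.12 for U2af1. Median-of-ratios scaling gave 0.024 for Hnrnph3, 0.058 for Snrpf, 0.027 for Srsf1 and 0.020 for Srsf10, and quantile normalization 0.029 for Hnrnph3 and 0.019 for Srsf10. The cause was not tested. Libraries of the same number correlated in their deviations at 0.65, 0.42 and -0.35 for numbers 1, 2 and 3, and not every library correlated best with its own number, so the numbers were not taken as pairs. With the replicate block 2383 genes passed, and of the splicing genes 1 rose and 6 fell, with a median of -0.03.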
